A study of Rattus norvegicus with 6 samples.

Results

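Genes of macrophages and other leukocytes were examined in cultures of rat mesenchymal stromal cells, which are spindle-shaped cells that stick to plastic and can form bone, fat and cartilage. The set was a list of 43 genes, and every probe set whose gene symbol in the platform annotation was one of them was taken. In all, 41 probe sets of 36 genes matched, among 15866 probe sets on the array once controls are left out. Itgb2, Spi1, Mrc1, Hcls1, Cd163, Msr1 and Slc11a1 had no probe set under their symbol and were not analysed here.

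The study set 3 stromal cultures from peripheral blood beside 3 from bone marrow. They came from 3 GFP transgenic rats, called S4, S5 and S6 in the labels, so each rat gave 1 blood and 1 marrow culture. The transgene is carried by both groups; its promoter, the strain and the age of the rats are not given in the labels. Both kinds of culture were started from gradient-purified mononuclear cells, grown in one medium with serum, cleared of non-adherent cells from the seventh day on, and harvested at passage 2. The protocols used here name adherence to plastic as the selection and no sorting by surface marker. From each culture 10 µg of total RNA was labelled and hybridised to 1 Affymetrix RAE230A array.

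Macrophages are phagocytes that adhere firmly to plastic, and adherent cultures from marrow or blood can carry them along with the stromal cells. Their growth and survival depend on the CSF1 receptor, and their gene program on the transcription factor PU.1 (Spi1), which binds purine-rich sites around the letters GAGGAA close to the start of many myeloid genes. Ptprc, or CD45, and the tetraspanins Cd53 and Cd37 mark leukocytes as a whole, whereas Cd68, Csf1r, the C1q chains and the ITAM adaptors Tyrobp and Fcer1g belong to macrophages and related myeloid cells.

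Promoters are shown for 6 genes, picked by hand. For each of them the marrow culture of rat S4 held the lowest value and lay more than 1 log2 unit below the blood culture of the same rat (for Mpeg1 on the brighter of 2 probe sets). Itgam, Fcgr2b, Lcp1, Fcer1g and Plek also met this mark and are not shown. They come from RefSeq on build GRCr8 and span 250 bases before to 50 after the annotated start of transcription, 5′ to 3′ on the strand of the gene. Cd53 is at chr2:197087847-197088146 on the minus strand, Laptm5 at chr5:148371630-148371929 on the plus strand, Ctss at chr2:185775146-185775445 on the plus strand, Cd68 at chr10:54882392-54882691 on the minus strand, Lyz2 at chr7:54797962-54798261 on the minus strand and Mpeg1 at chr1:218876644-218876943 on the plus strand. Capitals mark GAGGAA on either strand, so that TTCCTC is the same motif read on the other strand.
Cd53: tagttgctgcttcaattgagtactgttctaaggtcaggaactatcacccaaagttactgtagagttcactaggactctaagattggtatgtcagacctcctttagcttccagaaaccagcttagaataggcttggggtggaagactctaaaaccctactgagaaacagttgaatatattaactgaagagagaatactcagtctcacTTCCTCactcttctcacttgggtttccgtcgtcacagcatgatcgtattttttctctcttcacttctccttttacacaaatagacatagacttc
Laptm5: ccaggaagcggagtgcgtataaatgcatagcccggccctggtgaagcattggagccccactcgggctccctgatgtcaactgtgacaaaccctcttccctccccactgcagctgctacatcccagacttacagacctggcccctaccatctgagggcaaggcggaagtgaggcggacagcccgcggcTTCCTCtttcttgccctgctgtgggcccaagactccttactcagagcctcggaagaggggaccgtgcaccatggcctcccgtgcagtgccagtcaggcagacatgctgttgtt
Ctss: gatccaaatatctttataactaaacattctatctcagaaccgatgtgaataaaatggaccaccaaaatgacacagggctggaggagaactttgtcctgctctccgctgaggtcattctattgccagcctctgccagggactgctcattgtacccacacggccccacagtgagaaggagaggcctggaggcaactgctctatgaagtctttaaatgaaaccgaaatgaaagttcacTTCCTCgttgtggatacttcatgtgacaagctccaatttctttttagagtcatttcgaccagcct
Cd68: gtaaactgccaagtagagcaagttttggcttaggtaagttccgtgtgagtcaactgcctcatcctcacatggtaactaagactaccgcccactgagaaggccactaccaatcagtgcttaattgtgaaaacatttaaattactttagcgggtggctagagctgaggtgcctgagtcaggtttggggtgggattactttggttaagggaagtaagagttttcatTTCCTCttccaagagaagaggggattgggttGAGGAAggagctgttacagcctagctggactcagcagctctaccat
Lyz2: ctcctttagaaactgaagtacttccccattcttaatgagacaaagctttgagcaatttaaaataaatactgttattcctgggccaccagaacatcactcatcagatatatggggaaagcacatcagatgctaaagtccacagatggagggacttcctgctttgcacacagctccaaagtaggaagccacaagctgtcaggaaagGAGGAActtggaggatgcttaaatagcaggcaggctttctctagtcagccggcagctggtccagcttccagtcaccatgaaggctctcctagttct
Mpeg1: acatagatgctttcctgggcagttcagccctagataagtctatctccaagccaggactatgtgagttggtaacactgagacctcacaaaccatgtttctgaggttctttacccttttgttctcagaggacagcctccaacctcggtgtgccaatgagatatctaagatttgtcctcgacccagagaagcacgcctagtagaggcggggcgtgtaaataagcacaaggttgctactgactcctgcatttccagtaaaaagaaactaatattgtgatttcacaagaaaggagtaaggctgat

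The motif GAGGAA lay at 44 bases before the start in Cd53, 63 in Laptm5, 15 in Ctss and 46 in Lyz2, counted at its first base on the printed strand. Cd68 held it at 27 bases before the start and again at base 5 after it, and Mpeg1 did not hold it in this window. Of the 43 genes, 24 had a promoter in the RefSeq table, and 15 of these 24 (62.5%) held GAGGAA on either strand, against 27.6% of all 33469 promoters of the same length. The 15 were C1qb, Cd14, Cd37, Cd53, Cd68, Csf1r, Ctss, Cybb, Gpnmb, Itgam, Laptm5, Lyz2, Mrc1, Ptprc and Vav1. The longer form GAGGAAGT, which contains the shorter one, was in 4 of the 24, Cd37, Cd53, Ctss and Vav1, and in 2.42% of all promoters. TATAAA was in 4 of 24, among them Ctss and Laptm5, against 14.2% of all promoters. These are matches of letters and not binding measurements.

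Signals are deposited values on a log2 scale whose base was read from their range. Array medians lay between 8.12 and 8.22, and the 3′ minus 5′ signal was 0.24 to 0.38 for beta-actin and 0.21 to 0.30 for GAPDH over the 6 arrays. Probe sets above the median of all values, 8.18, on all 3 arrays of at least 1 group were counted as passing a signal filter. This is a rank within the table and not a detection limit, and detection calls were not used here. Cd3e, a chain of the T cell receptor complex, also passed, at 8.26 to 8.67 over the 6 arrays. Type I collagen, the main product of stromal cells, was high in every culture, at 11.72 to 12.85 on a probe set of Col1a1. Within each rat the blood array sat in the fluidics module numbered next below that of the marrow array and was scanned before it, so module, scan order and cell source cannot be told apart.

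Of the 41 probe sets 20, each of a different gene, passed the filter, beside 7625 of all 15866 probe sets, a similar share. Mpeg1 and Fcgr2b passed through the blood arrays alone, and the other 18 through both groups. A further 15 probe sets were above 8.18 on none of the 6 arrays, and 6 were above it on some. The plot of levels by culture shows all of them. Defining leukocyte genes were on both sides: Cd53, Laptm5, Lcp1, Cd68, Tyrobp, Fcer1g, Ctss and Cd14 passed, whereas Ptprc, Coro1a, Cd37, Itgam, Csf1r, C1qa and C1qc did not. None of the 41 was at 0 on any array.

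**Figure D1:**
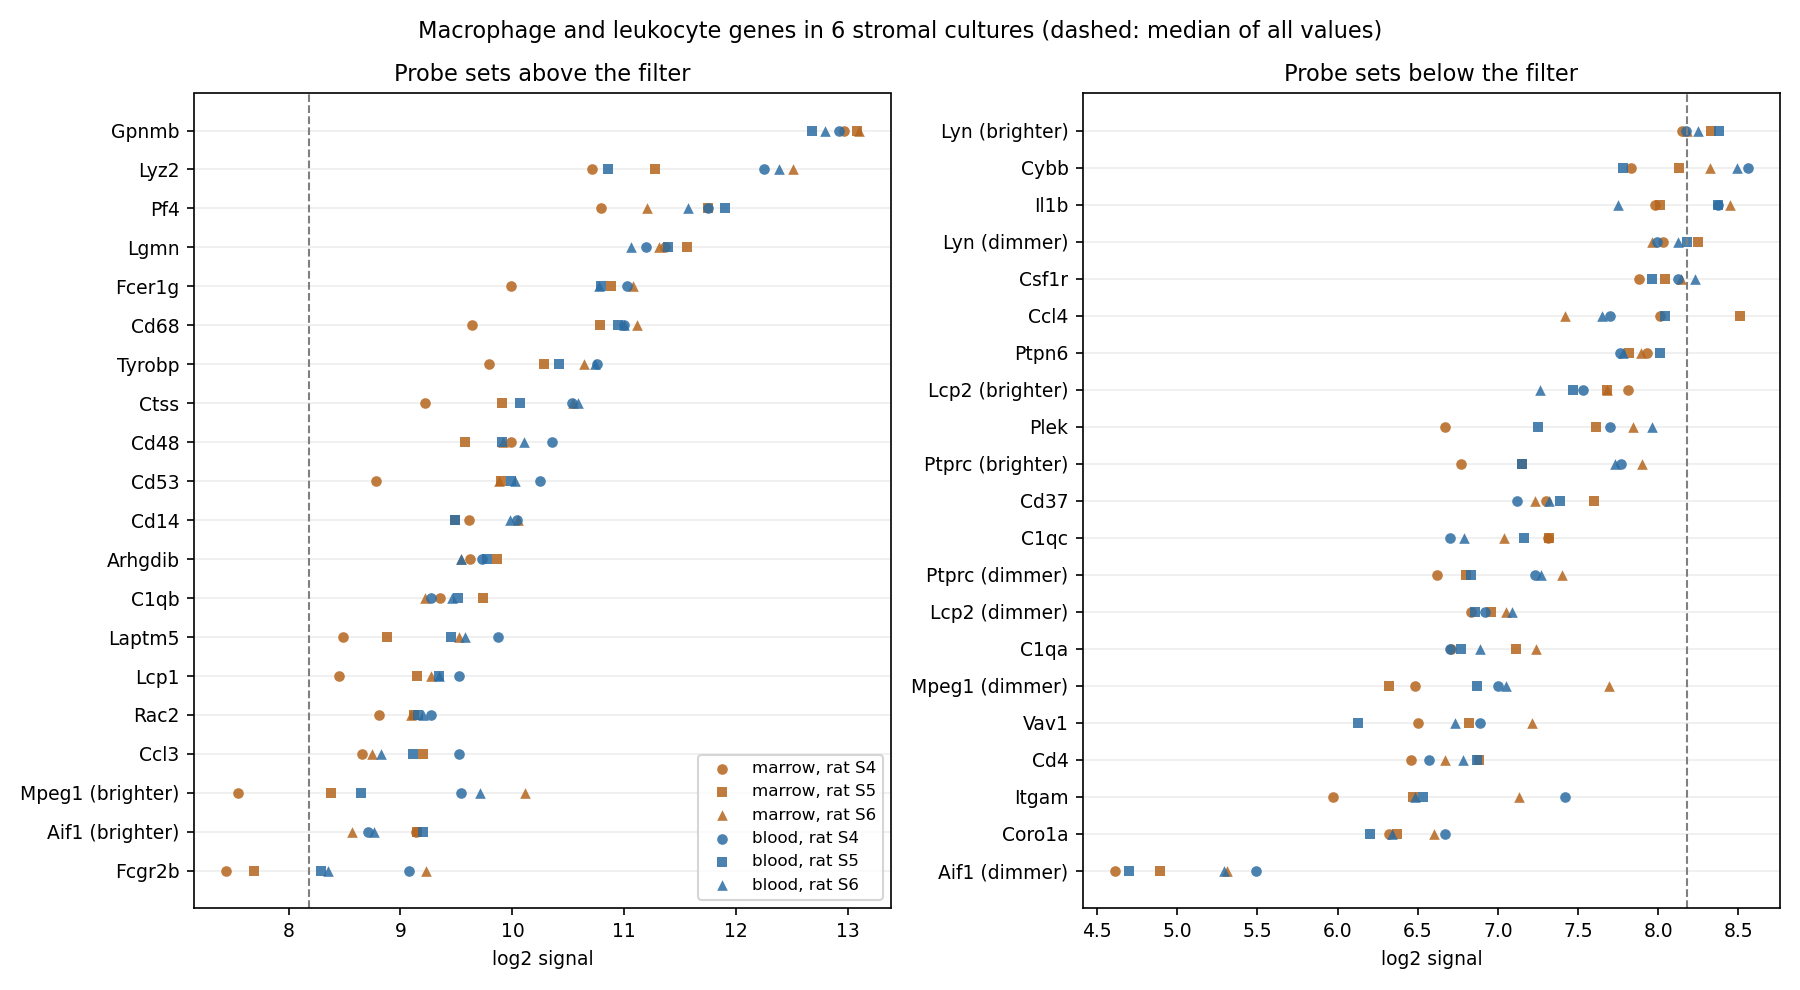
Log2 signal (x axis) of the 20 probe sets above the filter (left) and the 21 below it (right) in each culture; colour gives the source, the shape of the point gives the rat, and the dashed line is the median of all values, 8.18. The marrow culture of rat S4 lies apart on the low side for Cd68, Cd53, Fcer1g, Tyrobp and Ctss, while Gpnmb, Lgmn and Arhgdib are close together in all 6 cultures.

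Blood and marrow cultures were compared within rats. With limma and Benjamini-Hochberg adjustment, 0 of the 20 probe sets past the filter were called at an adjusted p of 0.05, where 3.13% of all probe sets past the filter were called, and 2 of the 20 had an unadjusted p under 0.05, beside 15.2% of all probe sets past the filter. In the fit without a filter, 0 of 41 were called, where 0.517% of all probe sets were called, and 0 had an unadjusted p under 0.05, beside 11.2% of all probe sets. The median difference, blood minus marrow, was 0.14 over the 41 probe sets and -0.01 over all probe sets. By rat the medians over the 41 were 0.43 in S4, -0.01 in S5 and 0.00 in S6, beside 0.05, -0.06 and -0.01 over all probe sets. Over the 20 past the filter they were 0.965, 0.07 and 0.055, and the median of the fitted differences was 0.31. Without rat S4 that last median was 0.025.

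Levels were lowest in the marrow culture of rat S4. The mean log2 signal over the 41 probe sets was 8.26 in the marrow culture of S4, 8.60 in that of S5 and 8.80 in that of S6. In blood cultures it was 8.80 in S4, 8.58 in S5 and 8.71 in S6. Over these 41 the blood cultures lay within the span of the marrow cultures. Over the 20 past the filter they did not, since S4 blood, at 10.33, was above the highest marrow culture, S6 at 10.23. The S4 marrow culture held the lowest of the 6 values for 22 of the 41 probe sets (53.7%), and did so for 18.8% of all probe sets. Blood was at least 1 log2 unit, or 2-fold, above marrow in rat S4 for 12 of 41 probe sets, where 4.22% of all probe sets passed that mark; in rats S5 and S6 it was so for 0 of 41, beside 2.55% and 3.00% of all. Blood was as far below marrow for 0 of 41 in each rat, beside 3.41%, 2.53% and 3.32% of all probe sets in S4, S5 and S6. Of the 20 past the filter, 9 reached that mark upward in S4 and 0 in S5 and S6, beside 3.59%, 2.08% and 2.14% of all probe sets past the filter. Among these 9 were Mpeg1 and Fcgr2b, which the filter let in through the blood arrays alone. By role, the median difference in S4 over all probe sets of a group was 1.00 for surface and membrane genes, 0.11 for cytoskeletal and signalling genes, 1.00 for the ITAM adaptors, 0.43 for the receptors, -0.08 for the C1q chains, 1.02 for lysosomal and microbe-killing genes and 0.625 for secreted products. Each difference within a rat is between a pair of single arrays, with no replicate check. Which cells of a culture held these RNAs was not tested. In bulk RNA a culture with fewer macrophages and one whose macrophages hold less of these RNAs cannot be told apart.

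Values of the 3 marrow cultures spanned 1 log2 unit or more for 13 of 41 probe sets, beside 7.90% of all probe sets, and those of the 3 blood cultures for 2 of 41, beside 8.74% of all. The median range was 0.56 among marrow cultures and 0.34 among blood cultures for the 41, and 0.34 and 0.33 for all probe sets. The 2 probe sets with a wide range in blood were those of Lyz2 and Mpeg1. Whether ranges differ between the sources was not tested, since each rests on 3 cultures.

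**Figure D2:**
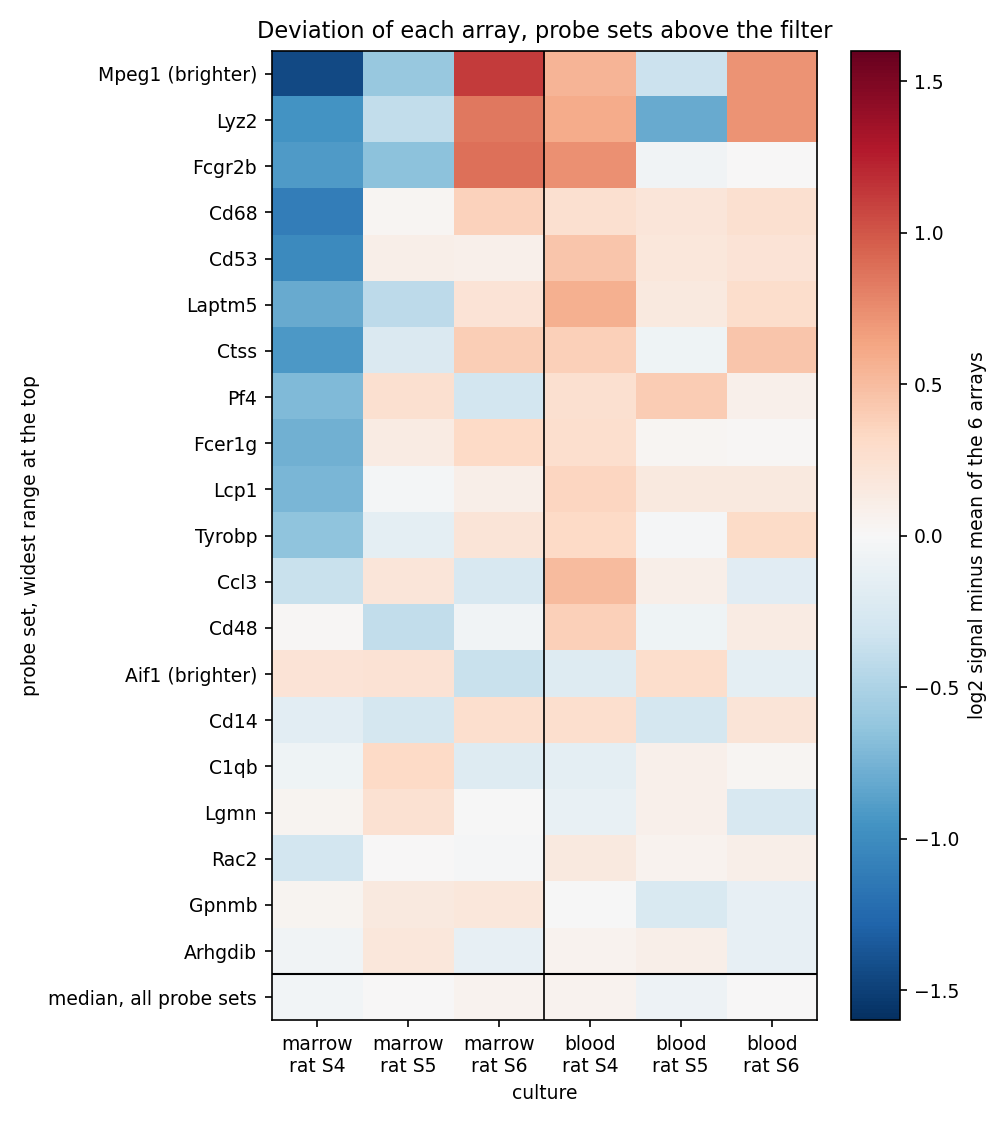
Deviation of each culture (columns) from the mean of the 6 arrays, in log2 units, for the 20 probe sets above the filter (rows, widest range at the top); the bottom row is the median over all probe sets above the filter. The column of the S4 marrow culture is the lowest for Mpeg1, Lyz2, Fcgr2b, Cd68, Cd53, Laptm5 and Ctss, and the median of all probe sets there is -0.04.

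Among leukocyte surface and membrane genes, Cd53, a tetraspanin of all leukocytes, stood at 8.78, 9.90 and 9.88 in the marrow cultures of rats S4, S5 and S6 and at 10.25, 9.99 and 10.02 in their blood cultures. The groups did not overlap, but the marrow cultures of S5 and S6 were within 0.14 of the blood cultures of the same rats, and only S4 was far below. The difference was 0.57 ± 0.29 (SE, limma, adjusted p = 0.439). Laptm5, a lysosomal membrane protein of blood cells, was at 8.49, 8.88 and 9.52 in marrow and 9.87, 9.45 and 9.58 in blood. Its difference of 0.67 ± 0.25 was the largest of any of the 41 and had an adjusted p of 0.279, with blood higher in 3 of 3 rats. Cd48, a ligand of the CD2 family, was at 9.99, 9.58 and 9.92 in marrow and 10.35, 9.91 and 10.10 in blood, a difference of 0.29 ± 0.12 (adjusted p = 0.329).

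Ptprc, the CD45 phosphatase, was under 8.18 everywhere. Its brighter probe set read 6.77, 7.15 and 7.90 in marrow and 7.77, 7.15 and 7.73 in blood. Its dimmer one read 6.62, 6.80 and 7.40 in marrow and 7.23, 6.83 and 7.27 in blood. On both, the cultures of S6 and the blood culture of S4 were above the rest. Itgam, the integrin CD11b, was at 5.97, 6.47 and 7.13 in marrow and 7.42, 6.53 and 6.48 in blood. Cd37, another leukocyte tetraspanin, stayed between 7.12 and 7.60 in all cultures.

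The intracellular leukocyte genes were mostly flat or dim. Lcp1, the actin bundler L-plastin, was at 8.45, 9.15 and 9.27 in marrow and 9.52, 9.34 and 9.34 in blood, again with S4 marrow alone far down and with no overlap of the groups (0.44 ± 0.22, adjusted p = 0.420). Rac2, a signalling protein of blood cells, was at 8.81, 9.12 and 9.09 in marrow and 9.27, 9.16 and 9.20 in blood, again lowest in S4 marrow and highest in S4 blood. Groups that did not overlap, with blood higher, were found for 3 of 41 probe sets, those of Cd53, Lcp1 and Rac2, where 6.95% of all probe sets showed this. Groups with blood wholly lower were found for 2 of 41, the brighter probe set of Lcp2 and that of Gpnmb, beside 9.39% of all.

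Arhgdib, which is abundant in leukocytes, was flat, with a range of 0.32 over the 6 cultures and a difference of 0.01 ± 0.12. Aif1, the macrophage calcium-binding protein IBA1, was lowest in the marrow culture of S6 and highest in the blood culture of S5, at 9.14, 9.15 and 8.57 in marrow and 8.71, 9.20 and 8.76 in blood. Its order thus differed from that of Cd53 and Lcp1. Its other probe set was dim, at 4.61 to 5.49, and ordered the cultures otherwise, with the marrow culture of S4 lowest. Coro1a, Vav1, both probe sets of Lcp2 and Ptpn6, all signalling or cytoskeletal proteins of blood cells, lay between 6.13 and 8.01. Lyn, a Src-family kinase, was at 7.96 to 8.38 on its probe sets, with ranges of 0.23 and 0.29. Plek, a substrate of protein kinase C in platelets and leukocytes, was dim but varied more, at 6.67, 7.61 and 7.84 in marrow and 7.70, 7.25 and 7.96 in blood.

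Tyrobp and Fcer1g, the membrane adaptors that carry signals of myeloid activating and Fc receptors, were measured in every culture at well over the table's median. Tyrobp was at 9.79, 10.28 and 10.64 in marrow and 10.76, 10.42 and 10.74 in blood, a difference of 0.40 ± 0.20 (adjusted p = 0.431). Fcer1g was at 9.99, 10.88 and 11.08 in marrow and 11.02, 10.79 and 10.77 in blood. Its difference was 1.03 in rat S4 and -0.09 and -0.31 in S5 and S6, for a fitted 0.21 ± 0.27 (adjusted p = 0.822). Csf1r, the receptor for the macrophage growth factor, lay just under the filter and was flat, at 7.88, 8.04 and 8.14 in marrow and 8.12, 7.96 and 8.23 in blood.

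Among receptors, Cd14, the lipopolysaccharide co-receptor, was at 9.61, 9.49 and 10.05 in marrow and 10.04, 9.49 and 9.98 in blood. It was low in both cultures of S5 and in the marrow culture of S4. Fcgr2b, the inhibitory IgG receptor, was at 7.44, 7.69 and 9.23 in marrow and 9.08, 8.29 and 8.35 in blood. Its differences ran from 1.64 in rat S4 through 0.60 in S5 to -0.88 in S6, so that the fitted 0.45 ± 0.44 lay within the spread between rats (adjusted p = 0.750). Cd4, which rat macrophages carry as well as T cells, was dim and flat at 6.46 to 6.88.

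The C1q chains, which macrophages secrete as the first component of complement, had another order of cultures than Cd53 and Cd68. C1qb was at 9.35, 9.74 and 9.22 in marrow and 9.27, 9.51 and 9.46 in blood, a difference of -0.02 ± 0.14 (adjusted p = 0.974). C1qa and C1qc were between 6.70 and 7.32 in all cultures, below the table's median. Their differences were -0.23 ± 0.14 and -0.34 ± 0.15 in the fit without a filter, with adjusted p of 0.659 and 0.512.

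The lysosomal and microbe-killing genes included the widest spread between cultures. Cd68, the macrophage lysosomal glycoprotein, was at 9.64, 10.78 and 11.11 in marrow and 11.00, 10.94 and 11.00 in blood. Blood cultures were within 0.06 of each other, while the marrow cultures spanned 1.47, and the fitted difference was 0.47 ± 0.29 (adjusted p = 0.543). Ctss, the protease cathepsin S, was at 9.22, 9.91 and 10.54 in marrow and 10.53, 10.07 and 10.59 in blood (0.51 ± 0.26, adjusted p = 0.448).

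Mpeg1, the pore-forming perforin-2 of macrophages, had the widest range of the 41, 2.56 log2 units or 5.90-fold, on its brighter probe set. It was at 7.55, 8.38 and 10.11 in marrow and 9.54, 8.65 and 9.71 in blood. Its dimmer probe set was at 6.48, 6.32 and 7.69 in marrow and 7.00, 6.87 and 7.05 in blood, so the marrow culture of S6 was highest on both. Lyz2, the lysozyme of macrophages and granulocytes, was at 10.71, 11.27 and 12.51 in marrow and 12.25, 10.85 and 12.38 in blood. For both genes the cultures fell into a high part, S6 of either source and S4 blood, and a low part, S5 of either source and S4 marrow. The fitted differences were 0.62 ± 0.43 for Mpeg1 and 0.33 ± 0.37 for Lyz2 (adjusted p = 0.613 and 0.792). Cybb, the NADPH oxidase subunit, had the same high part at lower signal, from 7.78 in S5 blood to 8.56 in S4 blood.

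This order, both cultures of S6 and the blood culture of S4 as the 3 highest, was picked after the values were seen. Both arrays of S6 were run on fluidics station 2, and those of S4 and S5 on station 1. Rat S6 and station thus cannot be told apart. The order held for 15 of 41 probe sets (36.6%) and for 15.4% of all probe sets. Past the filter it held for 8 of 20, beside 21.6% of all probe sets past the filter. The 15 of 41 stood for Laptm5, Cd14, Aif1, Cybb, Mpeg1, Lyz2, Ptprc, Fcgr2b, Tyrobp, Cd68, Ctss, Csf1r and Plek, with both probe sets of Mpeg1 and of Ptprc and the dimmer one of Aif1. Cd53, Lcp1 and Fcer1g had another order, with S4 marrow low and the other cultures closer together. Pf4 was lowest in S4 marrow too, at 10.79, with S6 marrow next at 11.20 and the other cultures higher.

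Gpnmb and Lgmn, lysosomal genes that fibroblasts also express, were bright and steady. Gpnmb was at 12.96, 13.08 and 13.10 in marrow and 12.92, 12.68 and 12.79 in blood, near the top of the scale, which ended at 13.31. It was lower in blood in 3 of 3 rats and differed by -0.25 ± 0.13 (adjusted p = 0.463). Lgmn, the protease legumain, was at 11.36, 11.56 and 11.31 in marrow and 11.19, 11.39 and 11.06 in blood, also lower in blood in 3 of 3 rats (-0.20 ± 0.12, adjusted p = 0.528). Blood was lower in all 3 rats for 5 of 41 probe sets and higher for 9 of 41, beside 17.1% and 14.5% of all probe sets.

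Among secreted products, Pf4, a chemokine of platelets that macrophages also make, was at 10.79, 11.75 and 11.20 in marrow and 11.75, 11.90 and 11.57 in blood. Blood was higher in 3 of 3 rats and the difference was 0.49 ± 0.18, with the smallest p of the 41 (adjusted p = 0.270). Ppbp, another platelet gene, was dim at 6.01 to 6.67. Ccl3, a macrophage chemokine, was at 8.66, 9.20 and 8.75 in marrow and 9.52, 9.11 and 8.83 in blood. Its neighbour in function Ccl4 was at 7.42 to 8.51 and was highest in the marrow culture of S5. Il1b, the inflammatory cytokine interleukin-1 beta, stayed between 7.75 and 8.45.

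**Figure D3:**
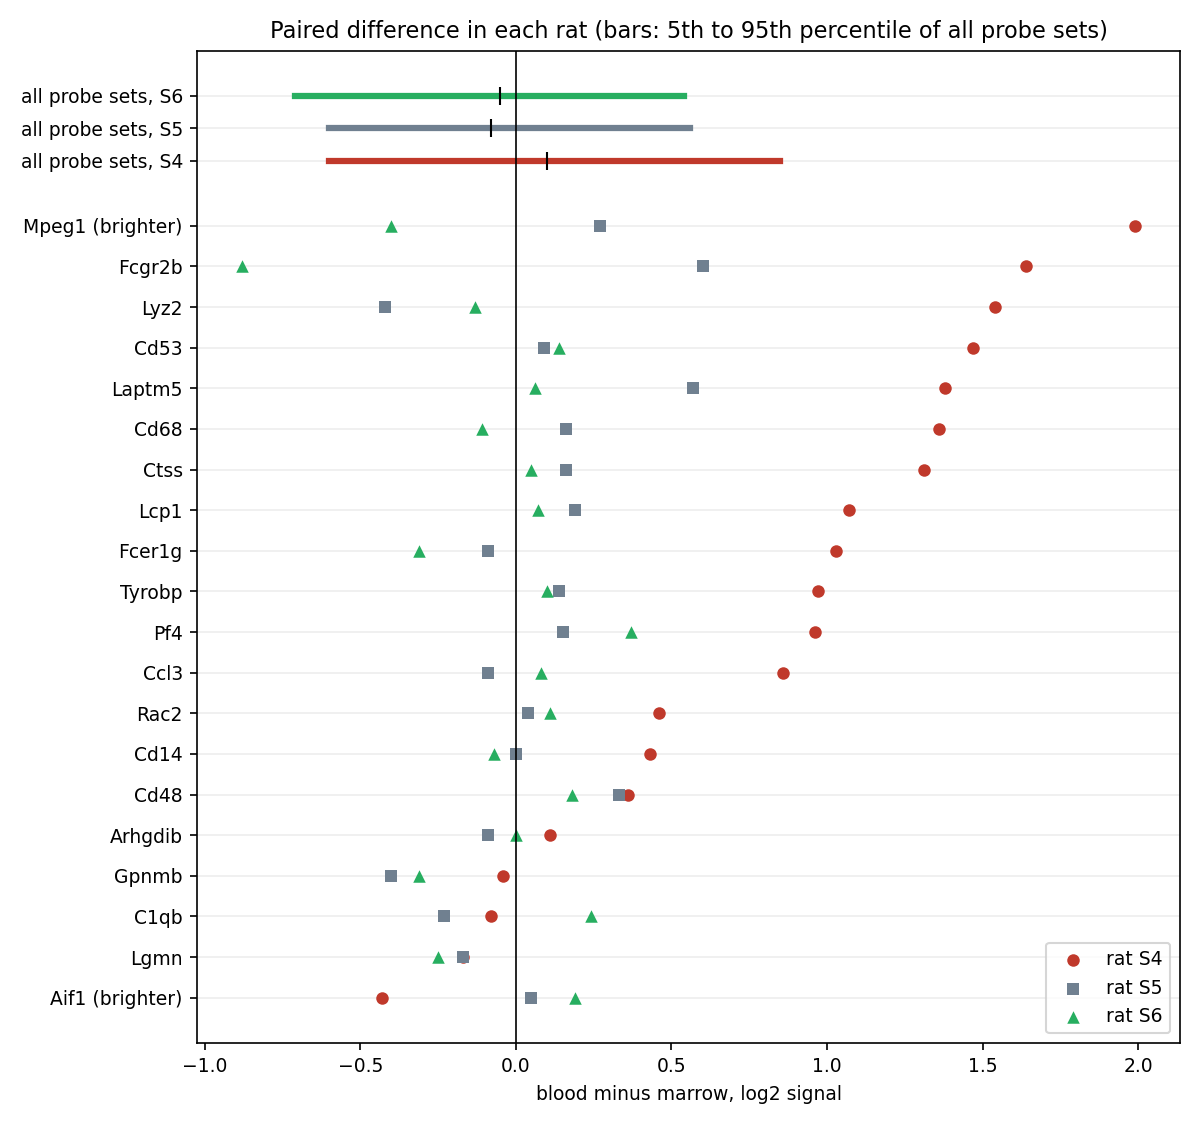
Blood minus marrow difference in log2 signal (x axis) for the 20 probe sets above the filter, with 1 point for each rat; bars at the top give the 5th to 95th percentile of all probe sets above the filter and ticks their median. In rat S4, 9 of the 20 lie at 1 or more and Mpeg1 reaches 1.99, while in rats S5 and S6 all 20 lie under 1. Mpeg1 and Fcgr2b, among the 9, passed the filter through the blood arrays alone.

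Other myeloid genes were taken from a separate list of 57 genes, of which 38 were on the array with 41 probe sets. Of these, 12 passed the filter and 0 were called in limma, while 4 had an unadjusted p under 0.05. These were both brighter probe sets of Sirpa, a myeloid receptor for CD47, with -0.94 ± 0.20 (adjusted p = 0.0799) and -0.77 ± 0.21 (adjusted p = 0.154), Wipf1 with -0.49 ± 0.13 and Cebpb with -0.51 ± 0.16. All 4 were lower in blood in 3 of 3 rats. Ucp2, next in order, passed the filter through the blood arrays alone. It differed by 1.32 ± 0.56 (adjusted p = 0.343) and was higher in blood in rats S4 and S6 alone. The median difference of the 41 probe sets was 0.03, and their mean level was 7.54 to 7.70 in marrow and 7.63 to 7.67 in blood cultures, lowest in S4 marrow. By rat the median differences were 0.00 in S4, -0.08 in S5 and 0.03 in S6, beside 0.05, -0.06 and -0.01 over all probe sets. Summed on the linear scale, their signal was 20625 in S4 marrow, 20473 in S6 marrow and 18713 in S6 blood, so S4 marrow was not lowest there. The brightest probe sets weigh most in such a sum, among them that of Cebpb at 11.01 to 11.98. Folr2, the folate receptor of resident macrophages, was at 8.44, 9.39 and 9.41 in marrow and 9.36, 9.10 and 9.29 in blood. It was 1 of the 12 genes outside the 43 whose values were nearest to the median profile of the 20 probe sets, by root mean square distance over the 6 arrays. Folr2 was not the nearest, at a distance of 0.12 log2 units. Gadd45a (0.06), Hspa9, Fyn, Fabp5, Srsf6 and Ppm1l were nearer, and Prkx, Grpel1, Naa60, Yars1 and Ppp3ca (0.14) further off.

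Ligands that recruit or feed macrophages were measured too. Csf1 was at 8.70 to 9.35 over all cultures with a difference of -0.30 (adjusted p = 0.494), and Ccl2, a chemokine for monocytes, at 11.11 to 12.30 with -0.19 (adjusted p = 0.538). Cx3cl1, or fractalkine, picked out after its values were seen, just missed the filter. It was at 8.58, 10.15 and 8.15 in marrow and 6.10, 6.05 and 6.03 in blood, a difference of -2.90 ± 0.41 with an adjusted p of 0.0954 when no filter was applied. Of 5 Toll-like receptor 4 pathway genes past the filter 0 were called, with 1 at an unadjusted p under 0.05, and that was Myd88 at -0.41 (adjusted p = 0.260).

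Osteoclasts arise from the same precursors as macrophages, and 2 of the 6 probe sets of their list passed the filter, with 0 called and 1 at an unadjusted p under 0.05. That was Acp5, the tartrate-resistant acid phosphatase, at 7.61, 8.35 and 7.88 in marrow and 8.53, 8.58 and 8.71 in blood. The groups did not overlap and blood was higher in 3 of 3 rats, by 0.66 ± 0.17 (adjusted p = 0.129). Acp5 passed the filter through the blood arrays alone, so these values come from a probe set let in by its high group. In the limma fit without a filter its adjusted p was 0.3. Ctsk, the protease cathepsin K, differed by -0.13 ± 0.25 (adjusted p = 0.898).

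Lists for other blood cells and for endothelium had few probe sets past the filter. Of the T and NK cell list 2 of 14 probe sets passed the filter, Cd3e and Cd2, and none of the 14 was at 0; the mean level of the list was 6.85 to 6.97 in marrow and 6.88 to 7.10 in blood cultures. The B cell list held 1 probe set, Cd79b, at 5.71 to 6.66. In the granulocyte and mast cell list 1 of 9 passed, Mcpt1, and S100a8 was at 0 in the marrow culture of S6 and the blood culture of S4. Of MHC class II and related genes 3 of 11 probe sets passed. They were Ciita at 8.73 to 9.47, the brighter of RT1-Ba at 8.17 to 8.61 and RT1-DMb at 7.94 to 8.54. Cd74 was below the filter, at 6.12 to 6.68. The endothelial list had 1 of 9 past the filter, and the erythroid and platelet list 3 of 8. With limma 0 probe sets of these lists were called, and 1, for RT1-DMb, had an unadjusted p under 0.05. That probe set passed the filter through the blood arrays alone, and its adjusted p in the limma fit without a filter was 0.361.

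By mean level the stromal list had another order of cultures. Its 16 probe sets had mean levels of 10.99, 10.77 and 11.33 in marrow and 10.52, 11.24 and 10.73 in blood, with S4 blood lowest. Of its 14 probe sets past the filter Eng rose by 1.62 ± 0.23 (adjusted p = 0.0235) and Pdgfra fell by 1.93 ± 0.34 in blood cultures (adjusted p = 0.0444); the call for Eng was lost in 3 of 13 other settings and that for Pdgfra in 9 of 13, leaving out rat S4 among them in both cases. Thy1, picked out after its values were seen, was on one of its probe sets at 9.38, 7.68 and 9.84 in marrow and 7.02, 9.42 and 7.41 in blood. The cultures low in Thy1 were thus S5 marrow, S4 blood and S6 blood, and S4 marrow, the lowest in macrophage genes, was not among them. Eng, Vcam1 and both probe sets of Cd44 were lowest in S4 marrow, at 8.25, 9.81, 9.53 and 9.94. Vcam1 and Cd44 were also picked out after their values were seen. The other probe sets of the list were lowest in S5 marrow, S4 blood or S6 blood. The cell division list had a mean level of 7.70 to 8.16 in marrow and 7.61 to 7.78 in blood cultures, with S5 marrow highest. Of its 4 probe sets past the filter 0 were called in limma, and 1, for Mcm2, had an unadjusted p under 0.05. The part of any of these in the differences of the macrophage genes was not tested.

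**Figure D4:**
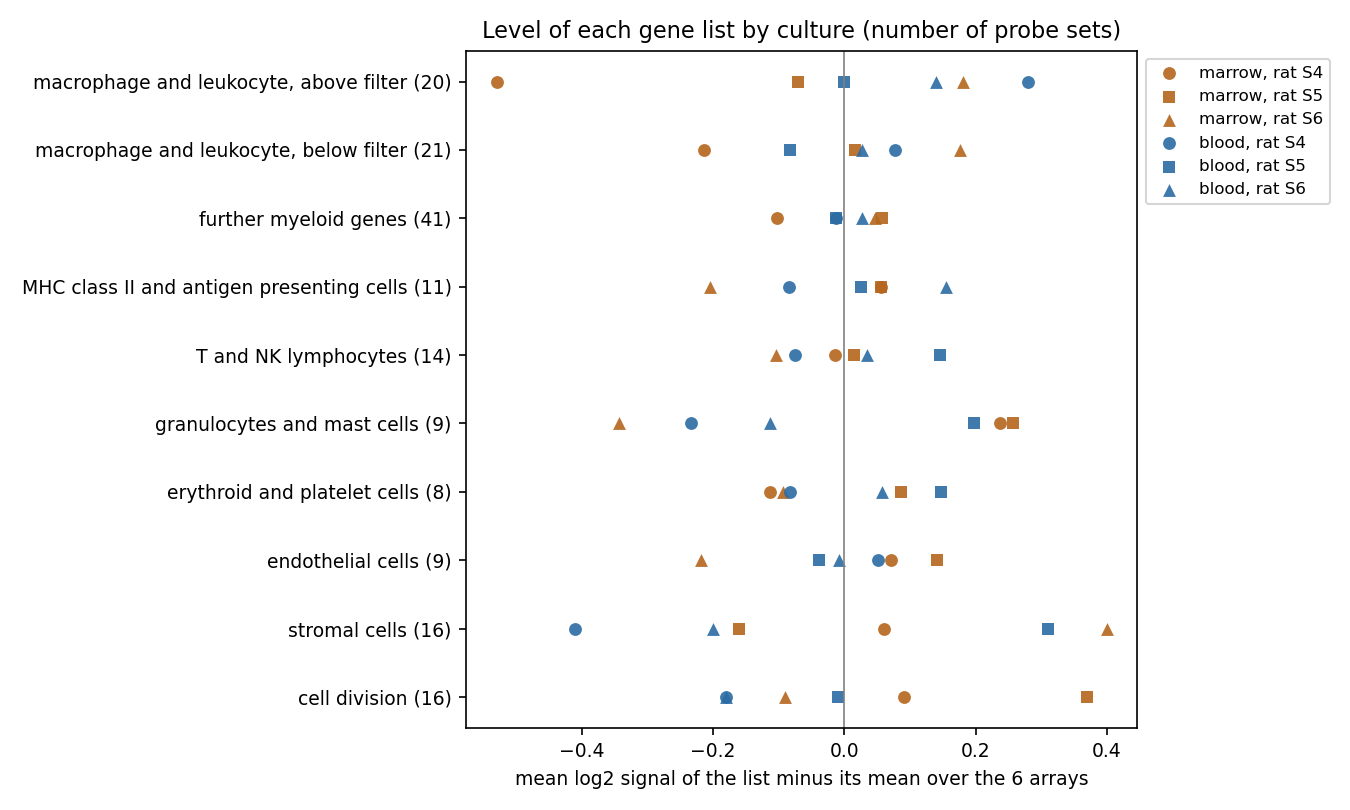
Mean log2 signal of each gene list in each culture, minus the mean of the list over the 6 arrays (x axis); numbers in parentheses are probe sets, colour gives the source and the shape of the point the rat. The S4 marrow culture is lowest for the macrophage and leukocyte genes. It is lowest by a smaller margin for the further myeloid genes and the erythroid list, but not for the T cell, granulocyte, endothelial or stromal lists.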

How the data were processed

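RNA of 6 stromal cultures was measured on 6 Affymetrix RAE230A arrays. The authors deposited 1 table of signals, per the submitters' processing notes made with GCOS (version not given in the sources used here). Its values are on a log2 scale, which was read from the deposited values, since neither base nor normalisation is given in the sources used here. Values were used as deposited; 86 cells were empty and 94 were exactly 0. The instrument text files gave station, module and scan order.

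Of 15923 probe sets 57 controls were left out and 7625 passed the filter, above 8.18 on all 3 arrays of either group. limma 3.58.1 (R 4.3.3) fitted blood minus marrow with the rat as a term, two-sided, with Benjamini-Hochberg adjustment over all probe sets kept at 0.05; a fit without a filter gave values for the rest. The fit was also run on simulated data with normal noise and no rat effect. Changes as small as those of the macrophage and leukocyte genes were not simulated. Pairing comes from the labels, which name the rat of each culture and state that cultures are paired. Deviations from group means correlated at -0.25, 0.31 and 0.31 between cultures of the same rat in S4, S5 and S6, and at -0.46 to 0.39 between cultures of different rats, so the values themselves do not show the pairing. Replicates within a group are from separate rats, with 1 array for each culture, and the number of arrays limits the precision.

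Gene names are those of the platform annotation: 12789 probe sets had 1 symbol, 312 several and 2822 none, and all 36 measured genes of the set matched RefSeq by identifier and symbol. The genes and the lists were chosen with earlier results of these data known. All genes of the set are named, with at most 4 genes of each other list by smallest p, and the 12 genes of most similar profile. Cd44, Cd74, Cd79b, Col1a1, Cx3cl1, Ppbp, S100a8, Thy1 and Vcam1 were picked after their values were seen. Alternatives were scaling, filter, rat term, intensity trend, zeros, pseudocount 16, fluidics station and leaving out each rat.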

Additional observations from a re-analysis of the deposited data

How the results depend on the processing

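Calls among the macrophage and leukocyte probe sets were 0 in all 13 alternatives run, with 0 to 4 at an unadjusted p under 0.05 in limma, and the smallest adjusted p of any of them was 0.14. Over all probe sets the 239 calls became 144 with no replicate block, 142 with arrays scaled to a common trimmed mean, 135 with quantile normalization, 82 with no filter, 131 with a filter on the mean of the 6 arrays, 151 with the fluidics station as a block, and 0 to 541 when 1 rat was left out: 0 without S4 (803 at an unadjusted p under 0.05 in limma), 541 without S5 and 81 without S6. Among the other gene lists the 2 calls became 1 with no replicate block, with either scaling, with the filter on the mean, with the station as a block and with a filter of at least 3 of 6 arrays, which was added after seeing the data; they became 0 with no filter, 4 with an intensity trend and 0 to 12 with 1 rat left out.

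The median of 0.31 over the probe sets past the filter was 0.143 over all 41, and 0.025 to 0.47 with 1 rat left out. The sign of 21 of 41 uncalled differences turned when 1 rat was left out, and in no other alternative. The ranges then were -0.105 to 0.43 for Aif1 (dimmer), -0.19 to 0.12 for Aif1, -0.045 to 0.055 for Arhgdib, -0.155 to 0.08 for C1qb, -0.005 to 0.47 for Ccl3, -0.035 to 0.215 for Cd14, -0.215 to 0.09 for Coro1a, -0.09 to 0.45 for Cybb, -0.2 to 0.47 for Fcer1g, -0.14 to 1.12 for Fcgr2b, -0.17 to 0.375 for Il1b, -0.295 to 0.755 for Itgam, -0.03 to 0.065 for Lcp2 (dimmer), -0.055 to 0.06 for Lyn (dimmer), -0.275 to 0.705 for Lyz2, -0.06 to 0.535 for Mpeg1 (dimmer), -0.065 to 1.13 for Mpeg1, -0.12 to 0.575 for Plek, -0.14 to 0.04 for Ptpn6, -0.05 to 0.32 for Ptprc (dimmer) and -0.085 to 0.5 for Ptprc. The cause was not tested. The 21 probe sets below the filter include both of Ptprc and that of Itgam, whose levels lie in the lower part of the signal range.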
